A study of Mus musculus with 23 samples.

Results

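The genes described here build or remodel the extracellular matrix of the lung: the fibrillar collagen chains Col1a1, Col1a2 and Col3a1, the adhesive glycoproteins Fn1, Tnc and Spp1, elastin (Eln), lysyl oxidase (Lox), the protease inhibitor Timp1 and the metalloproteinase Mmp12. A gene was included where the platform annotation listed a probe set under its symbol alone. By that rule 9 of the 10 were measured, on 18 of 45037 probe sets, among 18193 genes in all, and Spp1 was not analysed here. Total RNA of the whole right lung was hybridised to 23 expression arrays. The mice were of the strains C57BL/6 (B6 below) and BALB/c (BALB below), male and female, and carried either the CF-/- genotype (called CF) or CF+/+ (called control). Crossing strain, sex and genotype gave 8 groups of 3 arrays, apart from the B6 CF males with 2. The labels used here give no age, no description of the CF allele and no statement that arrays of a group came from separate mice, so the p-values refer to the spread of these samples alone, and that spread may be technical.

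The matrix of the lung is laid down mainly by fibroblasts and smooth muscle cells. Collagen I and collagen III are secreted as procollagens, trimmed into fibrils and cross-linked by lysyl oxidase, which also cross-links the elastin that lets the alveoli recoil. In fibrosis the fibrillar collagens, fibronectin, tenascin C, lysyl oxidase and TIMP1 typically rise together, and these genes are commonly read as its transcript markers. The comparisons below ask whether they differed between CF and control lungs in either strain; the labels name the crossing of strain, sex and CF genotype as the design.

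Values are log2 signals as deposited, and a difference of 1 is a doubling of signal. Each gene is represented by its probe set of highest mean, and a gene is said to have passed where limma's test gave an adjusted p (Benjamini-Hochberg over all 45037 probe sets) below 0.05. For each strain, CF minus control was averaged over the sexes and is called its CF effect. Array medians lay between 4.56 and 4.64, and precision is limited by how many arrays there are. Lung epithelial markers were high on all arrays, with surfactant protein C (Sftpc) at 13.55 to 13.75. Marker scores, the mean over a list of each gene's value minus its median over all arrays, set 9 arrays apart by a score above 1 for skeletal muscle, squamous epithelium or gut epithelium. These were B6 female control 1, B6 male control 3, BALB male controls 1 and 2, BALB female controls 1 and 3, and all 3 BALB CF females. In BALB these scores varied with genotype and sex. Fits that include them as covariates therefore cannot tell the CF effect in BALB from the scores. Heart muscle was also scored but not used for this cutoff. On that score B6 male control 2 reached 1.03 and the BALB CF females read -1.04 to -0.56. In whole-lung RNA, fewer cells of a type and less RNA per cell cannot be told apart.

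In B6 lungs the matrix genes did not move as a group. Fibronectin (Fn1) was higher in CF, collagen III (Col3a1) was lower, and the other 7 measured genes did not pass. At an unadjusted p below 0.05 there were 4, Fn1, Col3a1, Col1a1 and Tnc, the last 3 with negative differences. The 2 genes of 9 that passed compare with 5.43% of all 18193 genes in the same comparison. Of the 9 differences 4 were positive and 5 negative, with a median of -0.02 beside 0.01 over all genes. In BALB lungs 0 of the 9 passed in limma's test, where 5.53% of all genes did, and at an unadjusted p below 0.05 there were 2, Fn1 and Eln. There 7 of the 9 differences were positive, with a median of 0.14 beside -0.01 over all genes. The difference between the strains in the CF effect passed for 1 of the 9, Col3a1, against 2.23% of all genes.

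**Figure D1:**
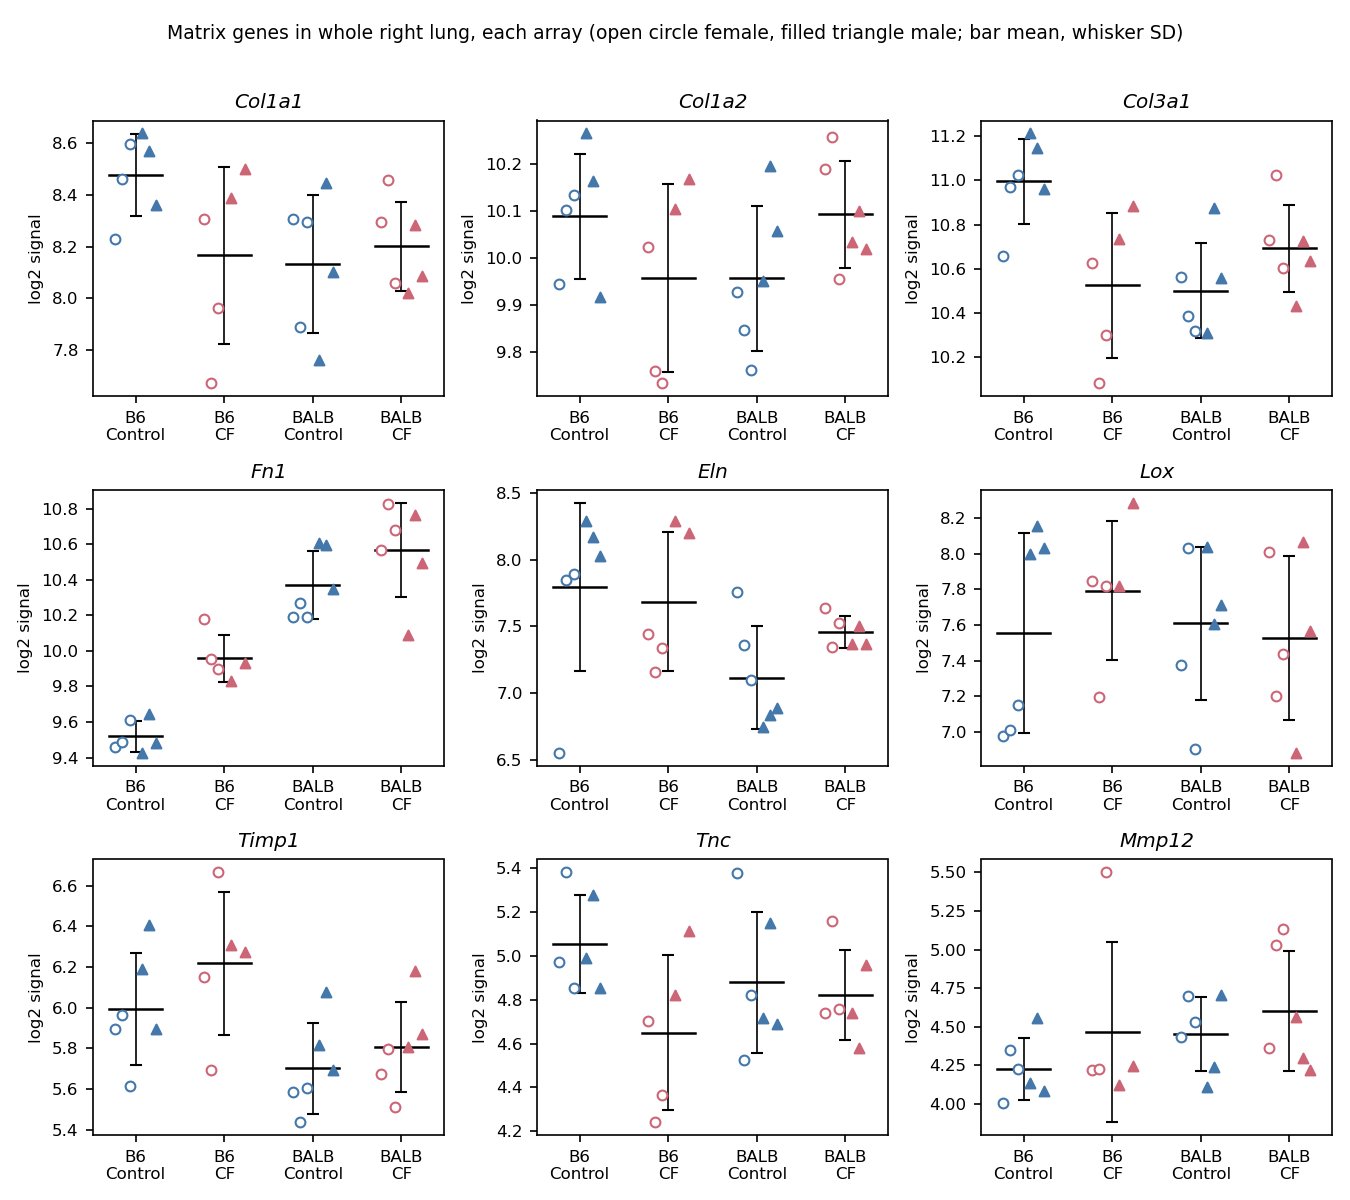
Log2 signal of the 9 measured matrix genes on each of the 23 arrays, by strain and genotype (open circles, females; filled triangles, males; bar, mean; whisker, SD). Fn1 is the panel in which the B6 CF arrays, at 9.83 to 10.18, lie entirely above the B6 controls, at 9.43 to 9.65, and the BALB controls lie higher still.

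Col3a1 encodes the chain of type III collagen, the thinner fibrillar collagen found with collagen I in vessel walls and alveolar septa. In B6 it read 10.66, 10.97 and 11.02 in female controls and 11.21, 11.14 and 10.96 in male controls. In B6 CF lungs it read 10.63, 10.08 and 10.30 in females and 10.73 and 10.89 in males. All but female control 1 of the B6 controls lay above every B6 CF array, and that control overlapped the CF range. The CF effect in B6 was -0.42 (SE 0.11, 95% interval -0.66 to -0.19, adjusted p = 0.0329), 1.34-fold lower in CF. A second Col3a1 probe set gave -0.48 (SE 0.16), with an adjusted p of 0.0883.

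The call on Col3a1 in B6 was close to the threshold. It was lost when any of 8 arrays was left out, with the difference then between -0.46 and -0.36. The adjusted p became 0.163 without B6 male CF 1, 0.0514 without male CF 2, 0.0911 without female CF 2 and 0.0698 without female CF 3. It became 0.0722 and 0.087 without B6 female controls 2 and 3, and 0.0796 and 0.0687 without B6 male controls 1 and 2. Without the 9 arrays that stood apart, the difference was -0.52 and the adjusted p 0.00873. Fibroblast marker scores ran from -0.12 to 0.02 in B6 controls and from -0.17 to -0.09 in B6 CF lungs. Of the 12 fibroblast markers 0 passed, where 5.43% of all genes did. Smooth muscle and myofibroblast scores ran from -0.19 to 0.20 in B6 controls and from -0.21 to 0.08 in B6 CF lungs. The part of these cell types in the result was not tested.

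In BALB, Col3a1 read 10.56, 10.39 and 10.32 in female controls and 10.31, 10.87 and 10.56 in male controls. The BALB CF lungs read 10.73, 11.02 and 10.61 in females and 10.43, 10.73 and 10.64 in males. The CF females lay above the control females, while the males of both genotypes overlapped. The difference over both sexes, 0.19 (SE 0.11, 95% interval -0.03 to 0.41, adjusted p = 0.364), did not pass, whereas the second probe set gave 0.56 (SE 0.15, adjusted p = 0.0314). Fibroblast scores ran from -0.07 to 0.14 in BALB controls and from -0.07 to 0.16 in BALB CF lungs. Smooth muscle and myofibroblast scores ran from -0.16 to 0.47 in BALB controls and from -0.21 to 0.16 in BALB CF lungs. The 3 BALB CF females were all among the arrays that stood apart, with skeletal muscle scores of 1.37 to 3.06 and squamous scores of 1.71 to 3.25. The part of all these cell types in the Col3a1 values was not tested.

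The CF effect on Col3a1 had opposite signs in the strains, and the difference itself passed. BALB minus B6 it was 0.61 (SE 0.15, 95% interval 0.29 to 0.93, adjusted p = 0.0371), and 1.03 (SE 0.21, adjusted p = 0.0125) on the second probe set. Leaving out an array ended this call in 13 of 23 fits, with values from 0.55 to 0.69 over all fits. Of the B6 arrays these were male CF 1 (adjusted p = 0.107), female CF 2 and 3 (0.0635 and 0.0607), female controls 2 and 3 (0.0689 and 0.0715) and male controls 1 and 2 (0.0701 and 0.0619). Of the BALB arrays they were female CF 2 (0.0667), male CF 2 and 3 (0.061 and 0.0652), female control 3 (0.064) and male controls 1 and 3 (0.0619 and 0.0511). With the muscle, squamous and gut scores as covariates the difference was 0.73 and the adjusted p 0.226. The fit without the arrays that stood apart could not be made for this comparison, since no BALB CF female array remained.

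The chains of collagen I, Col1a1 and Col1a2, make up the most abundant fibrillar collagen. Col1a1 read 8.23 to 8.64 in B6 controls, 7.67 to 8.5 in B6 CF lungs, 7.76 to 8.45 in BALB controls and 8.02 to 8.46 in BALB CF lungs, so the groups overlapped. Its CF effect was -0.26 in B6 (95% interval -0.53 to -0.00, adjusted p = 0.284) and 0.07 in BALB (-0.18 to 0.31, adjusted p = 0.842). Col1a2 lay between 9.73 and 10.27 on all arrays. Its CF effect was -0.10 in B6 (95% interval -0.26 to 0.06) and 0.14 in BALB (-0.02 to 0.29), with adjusted p of 0.569 and 0.343. A second Col1a2 probe set gave -0.21 in B6 (95% interval -0.46 to 0.03, adjusted p = 0.363) and 0.22 in BALB (-0.01 to 0.45, adjusted p = 0.296). Neither collagen I chain passed in either strain.

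The 3 collagen chains varied together from array to array. After the mean of each of the 8 groups was taken away, Col1a1 and Col3a1 correlated at 0.90 over the 23 arrays, Col1a2 and Col3a1 at 0.86, and Col1a1 and Col1a2 at 0.78. The points share their arrays, the labelling and the normalization, and these are descriptions. B6 female CF 1 lay above its group in all 3 chains and B6 female CF 2 below it in all 3. Fn1 followed the collagens less closely, at 0.35 with Col1a1 and 0.50 with Col3a1, and Lox hardly, at -0.01 and 0.20.

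**Figure D2:**
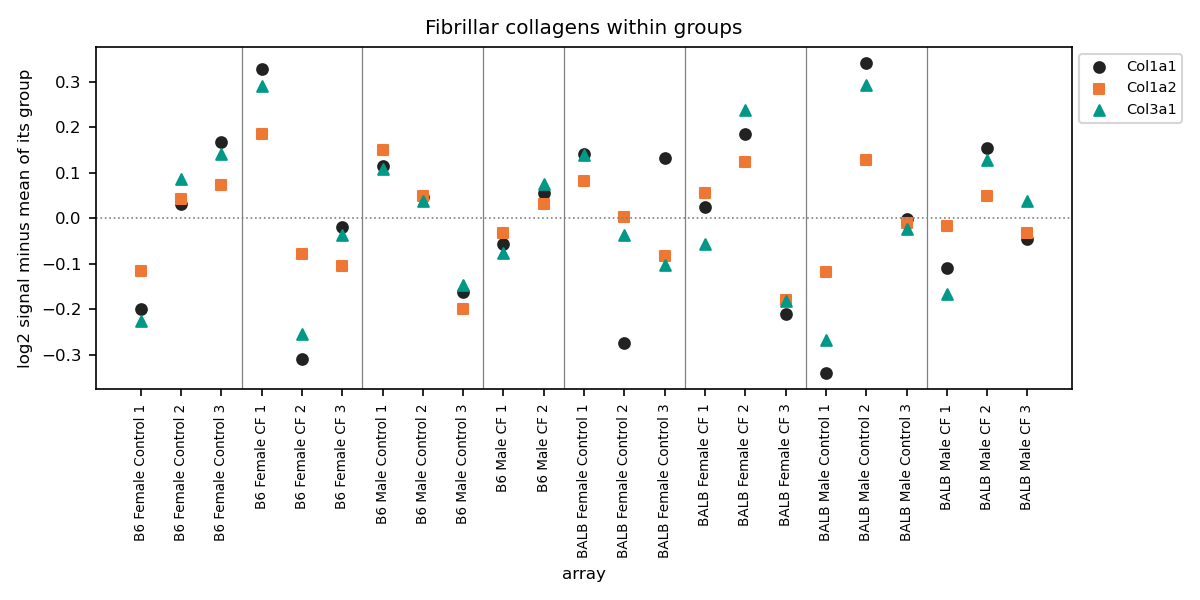
Log2 signal of Col1a1, Col1a2 and Col3a1 on each array minus the mean of the array's group, in the 23 arrays in group order. The 3 chains lie on the same side of 0 on most arrays, with pairwise correlations of 0.78 to 0.90.

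The genes most like the collagens in this within-group variation were found by Pearson correlation with the mean of the 3 chains over the 23 arrays, among 11631 genes. Col6a3, a chain of the beaded-filament collagen VI, came first (r = 0.87, Spearman's rho = 0.84). The next were Nisch (0.83), the gelatinase Mmp2 (0.82), Klhl15 (0.80), Slc12a7 (0.78), the basement membrane ligand Npnt (0.77), Gramd1b (0.77), Col6a1 (0.77), Fstl1 (0.75) and Thrap3 (0.74). Of these 10 genes, 3 were on the matrix lists used below (Col6a3, Mmp2 and Col6a1), and Npnt was also among the fibroblast markers.

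The start regions of Col3a1 and Col1a2 are shown, whose transcripts varied together at 0.86. Col1a1 had no window among those kept here. Windows from RefSeq's table of mouse promoters (GRCm38.p6), matched by symbol, were kept for 6 of the 10 genes. That count is of the windows kept here and not of all that the source holds. The 250 bases before the annotated start of Col3a1, chr1:45311288-45311537 on the plus strand, and of Col1a2, chr6:4505368-4505617 on the plus strand, were searched on both strands for TATAA (the TATA box core), CCAAT (the CCAAT box), GGGCGG (the GC box), CAGACA (the Smad-binding element, where the mediators of TGF-beta signalling can bind) and TGAGTCA (the AP-1 site). Capitals mark the matches, written 5′ to 3′ on the gene's strand.
Col3a1: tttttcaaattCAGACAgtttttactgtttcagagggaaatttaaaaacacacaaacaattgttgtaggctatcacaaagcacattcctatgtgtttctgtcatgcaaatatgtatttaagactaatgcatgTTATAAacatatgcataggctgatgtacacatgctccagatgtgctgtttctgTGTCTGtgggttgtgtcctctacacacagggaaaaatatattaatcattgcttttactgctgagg
Col1a2: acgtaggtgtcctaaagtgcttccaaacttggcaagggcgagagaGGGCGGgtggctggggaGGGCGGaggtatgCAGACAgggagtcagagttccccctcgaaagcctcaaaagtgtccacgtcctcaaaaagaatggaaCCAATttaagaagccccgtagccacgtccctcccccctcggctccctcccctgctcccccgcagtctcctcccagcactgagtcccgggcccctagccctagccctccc

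In the Col3a1 window the letters TATAA occurred on both strands, overlapping, between 118 and 113 bases before the start. CAGACA occurred at 239 to 234 bases on the same strand and at 65 to 60 bases on the opposite strand, where it reads TGTCTG. In the Col1a2 window CAGACA occurred once, 175 to 170 bases before the start, CCAAT at 109 to 105, and GGGCGG at 205 to 200 and 188 to 183. CAGACA was the 1 motif both windows held, and 17.1% of 32851 windows of the same length hold it. TATAA was in 22.8% of windows, CCAAT in 33.8%, GGGCGG in 32.7% and TGAGTCA in 4.46%. A match is a description of the letters and not of a bound site. The base composition differed, with 35.2% G and C in the Col3a1 window and 62.0% in that of Col1a2.

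Fibronectin, the glycoprotein to which cells attach and on which collagen fibrils assemble, had the lowest adjusted p of the 9 genes in B6. It read 9.46, 9.49 and 9.61 in B6 female controls and 9.43, 9.65 and 9.48 in male controls. In B6 CF lungs it read 10.18, 9.95 and 9.90 in females and 9.83 and 9.93 in males. All 5 CF arrays lay above all 6 controls. The CF effect was 0.43 (SE 0.09, 95% interval 0.23 to 0.62, adjusted p = 0.0107), 1.34-fold higher. It passed in all 23 fits that left out 1 array, with adjusted p of at most 0.044. The other Fn1 probe set, of lower signal, gave 0.32 (SE 0.24, adjusted p = 0.553).

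The monocyte and interstitial macrophage markers also had a higher score in B6 CF lungs. Their score ran from -0.15 to 0.07 in B6 controls and from 0.14 to 0.63 in B6 CF lungs without overlap. Among the B6 CF arrays the lowest score, 0.14, was that of female CF 1, which read highest in Fn1. Of the 10 measured markers 5 were higher and 0 lower, where 5.43% of all genes passed. Fcgr1, the dimmest of the markers, had a mean of 5.19. Alveolar macrophage scores ran from 0.27 to 0.71 in B6 controls (median 0.40) and from 0.52 to 1.19 in B6 CF lungs (median 0.61). They overlapped only through B6 female control 1. Of the 8 measured markers 1 was higher and 0 lower, beside the same share of all genes. The part of these cell types in the Fn1 difference was not tested. Without the 9 arrays that stood apart the Fn1 difference was 0.40 with an adjusted p of 0.0611, and with the muscle, squamous and gut scores as covariates it was 0.39 with an adjusted p of 0.0716.

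In BALB, Fn1 read 10.19, 10.27 and 10.19 in female controls and 10.61, 10.60 and 10.35 in male controls. The CF lungs read 10.56, 10.83 and 10.68 in females and 10.09, 10.76 and 10.49 in males. The females of the 2 genotypes did not overlap and the males did. Over both sexes the CF effect was 0.20 (SE 0.09, 95% interval 0.02 to 0.39, adjusted p = 0.228). Of the 23 fits that left out 1 array, it passed only without BALB male CF 1, the lowest CF array, at 0.29 (adjusted p = 0.035). The other Fn1 probe set, of lower signal, gave a negative difference in BALB that did not pass. The difference between the strains in the CF effect, -0.23 (95% interval -0.50 to 0.05, adjusted p = 0.431), did not pass. The monocyte and macrophage score in BALB ran from -0.52 to -0.15 in controls and from -0.17 to 0.28 in CF lungs. Of its 10 markers 4 were higher and 0 lower, where 5.53% of all genes passed.

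Tenascin C (Tnc), a glycoprotein of wounds and developing tissue, was near the median of all probe sets (4.59), with a mean of 4.86. It read 4.85 to 5.38 in B6 controls and 4.24 to 5.11 in B6 CF lungs, overlapping groups. The difference was -0.35 (95% interval -0.66 to -0.05, adjusted p = 0.202) in B6 and -0.06 (-0.35 to 0.23, adjusted p = 0.89) in BALB.

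Elastin (Eln) read 6.56, 7.85 and 7.89 in B6 female controls and 8.29, 8.17 and 8.03 in B6 male controls. The B6 CF lungs read 7.44, 7.16 and 7.34 in females and 8.28 and 8.20 in males. Female control 1 lay far below the other B6 controls, and it was among the arrays that stood apart. The CF effect in B6 was -0.02 (SE 0.17, 95% interval -0.37 to 0.34, adjusted p = 0.977). Without the 9 arrays that stood apart it was -0.27 and passed (adjusted p = 0.0472).

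In BALB, Eln ran from 6.75 to 6.89 in male controls and from 7.37 to 7.50 in CF males without overlap, and from 7.10 to 7.76 in control females and 7.35 to 7.64 in CF females with overlap. BALB male controls 1 and 2 stood apart by gut epithelium scores of 1.70 and 1.23, beside 0.39 in male control 3 and -0.13 to -0.03 in the CF males. The part of gut transcripts in the Eln values was not tested. The BALB effect was 0.34 (SE 0.16, 95% interval 0.01 to 0.68, adjusted p = 0.263), and the second Eln probe set also gave 0.34 (SE 0.10, adjusted p = 0.0619). Leaving out B6 female control 1, which enters this comparison only through the shared estimate of spread, left the value at 0.34 and gave an adjusted p of 0.0258. The strain difference of the CF effect was then 0.58 (adjusted p = 0.0166), against 0.36 (adjusted p = 0.506) with all arrays.

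Lysyl oxidase (Lox), the enzyme that cross-links collagen and elastin, read 6.98 to 8.16 in B6 controls and 7.20 to 8.29 in B6 CF lungs. The CF effect was 0.28 in B6 (95% interval -0.14 to 0.70, adjusted p = 0.536) and -0.08 in BALB (-0.48 to 0.32, adjusted p = 0.886). Among controls it was lower in females, at 6.98, 7.01 and 7.15 in B6 against 8.0, 8.16 and 8.03 in B6 males. In BALB the control females read 7.38, 8.03 and 6.91 and the control males 8.04, 7.60 and 7.71. The sexes did not overlap in B6 and overlapped in BALB.

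Female minus male over both strains, Lox differed by -0.68 (SE 0.19, 95% interval -1.08 to -0.28), with an adjusted p of 0.0624 that did not pass. It passed without BALB female control 2 (-0.83, adjusted p = 0.0187), BALB male CF 1 (0.036), BALB male CF 2 (0.0445) or BALB female CF 1 (0.0498). In that comparison 0 of the 9 genes passed in limma's test, against 3.42% of all genes, and 2 had an unadjusted p below 0.05, Lox and Timp1.

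Timp1, a secreted inhibitor of metalloproteinases, read 5.61 to 6.41 in B6 controls, 5.69 to 6.67 in B6 CF lungs, 5.44 to 6.08 in BALB controls and 5.51 to 6.18 in BALB CF lungs. All these ranges overlapped. The CF effect was 0.24 in B6 (95% interval -0.04 to 0.51, adjusted p = 0.392) and 0.11 in BALB (-0.16 to 0.37, adjusted p = 0.746).

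Mmp12, the macrophage metalloelastase, had a mean of 4.44, below the median of all probe sets. B6 female CF 3 read 5.50, while the other 4 B6 CF arrays read 4.12 to 4.25 and the B6 controls 4.01 to 4.56. That array also had the highest alveolar macrophage score (1.19) and the highest monocyte and interstitial macrophage score (0.63) of the 23, and their part in its Mmp12 value was not tested. The CF effect was 0.19 in B6 (95% interval -0.21 to 0.59, adjusted p = 0.697) and 0.15 in BALB (-0.23 to 0.52, adjusted p = 0.752).

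**Figure D3:**
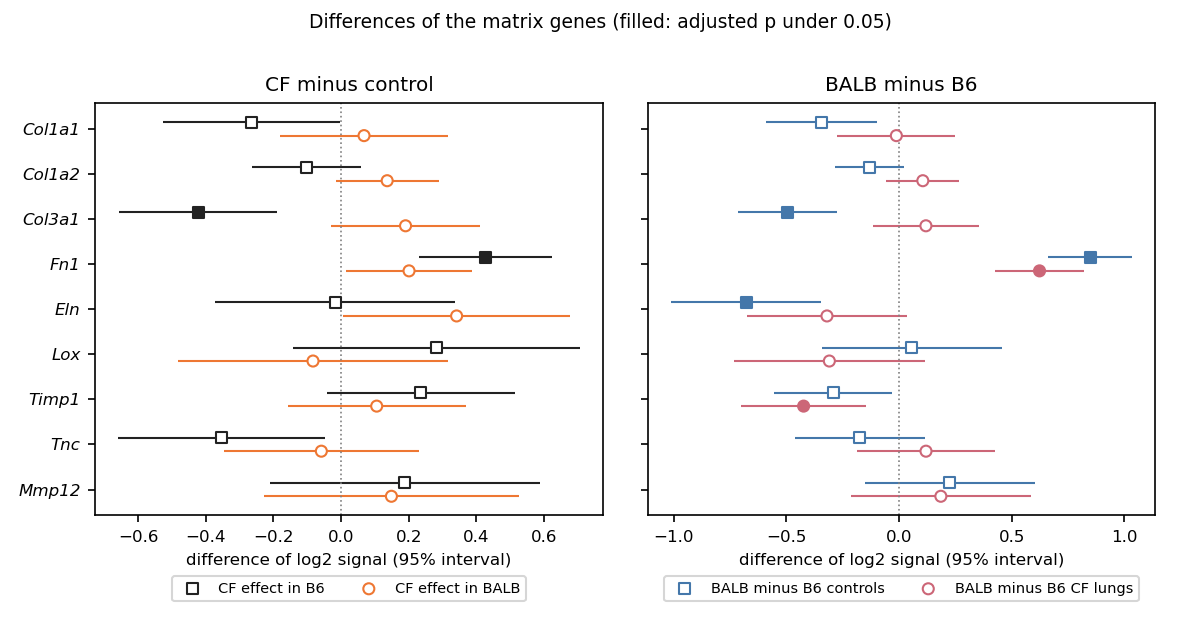
Differences of log2 signal with 95% intervals for the 9 measured matrix genes for CF minus control within each strain (left) and BALB minus B6 within each genotype (right), filled where the adjusted p was below 0.05. Col3a1 and Fn1 are filled and of opposite sign for the CF effect in B6, no gene is filled for the CF effect in BALB, and Fn1 lies furthest from 0, at 0.85, between the control strains.

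Within single sexes no member passed. In B6 females 0 of 9 passed (6 at an unadjusted p below 0.05), where 0.929% of all genes did, with Col3a1 at -0.55 (adjusted p = 0.0973), Fn1 at 0.49 (0.0753) and Tnc at -0.63 (0.168). In B6 males 0 of 9 passed (1 unadjusted, Fn1), against 7.4% of genes, with Fn1 at 0.36 (0.142) and Col3a1 at -0.30 (0.354). In BALB females the count was also 0 (3 unadjusted) against 1.51% of genes, with Fn1 at 0.47 (0.0661), Col3a1 at 0.36 (0.242) and Col1a2 at 0.29 (0.171). In BALB males it was 0 (1 unadjusted, Eln) against 2.12%, with Eln at 0.59 (0.235), Fn1 at -0.07 and Col3a1 at 0.02. The difference between the sexes in the CF effect passed for 0 of 9 in B6 (0 unadjusted, 2.05% of genes) and 0 of 9 in BALB (2 unadjusted, 0.0275% of genes), so these effects were not shown to differ between females and males.

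Between the strains, 3 of 9 genes passed among controls, against 18.2% of all genes. Fn1 was 0.85 higher in BALB (SE 0.09, adjusted p = 3.11e-07), 1.8-fold, while Col3a1 was 0.49 lower (SE 0.11, adjusted p = 0.002) and Eln 0.68 lower (SE 0.16, adjusted p = 0.00471). Every BALB control, at 10.19 to 10.61, read above every B6 control in Fn1, whereas Col3a1 and Eln overlapped between the strains. On the second Col3a1 probe set every BALB control read below every B6 control. The calls on Fn1, Col3a1 and Eln held in all 23 fits that left out 1 array. Col1a1 was at -0.34 (SE 0.12) and just missed, with an adjusted p of 0.0544, while its second probe set passed at -0.62 (adjusted p = 0.000726).

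Col1a1 passed between the control strains when B6 female control 1 (adjusted p = 0.0352), B6 male control 3 (0.0465), B6 female CF 1 (0.0388), B6 female CF 2 (0.0409) or BALB male control 2 (0.0145) was left out. Without the 9 arrays that stood apart, BALB female control 2 and BALB male control 3 were the only BALB controls left. The strain differences in that fit were -0.57 for Col1a1, -0.62 for Col3a1, 0.76 for Fn1 and -0.92 for Eln. With the muscle, squamous and gut scores as covariates, Col3a1 was at -0.46 and Eln at -0.41, and neither passed (adjusted p = 0.336 and 0.572). Gut epithelium scores ran from 0.30 to 1.8 in BALB controls and from -0.14 to 1.36 in B6 controls, and alveolar macrophage scores from -0.57 to -0.20 and from 0.27 to 0.71. Their part in the strain differences was not tested.

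Among CF lungs 2 of 9 genes differed between the strains, against 19.7% of all genes. Fn1 was 0.62 higher in BALB (SE 0.09, adjusted p = 4.4e-05), and Timp1 was 0.42 lower (SE 0.13, adjusted p = 0.0304). The Timp1 call was lost without B6 male CF 1 (adjusted p = 0.0956), B6 male CF 2 (0.0719), B6 female CF 3 (0.0887), BALB male CF 1 (0.0708), BALB male CF 3 (0.0638) or BALB female CF 3 (0.0676). Col3a1, lower in BALB controls, was at 0.12 (SE 0.11, adjusted p = 0.533) between the CF lungs. This comparison shares its CF arrays with the CF effects above.

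The wider matrix was described with 11 lists of collagens, matrix proteins, matrix enzymes and TGF-beta signalling genes, in which 196 of 212 genes were measured. The lists hold all 9 measured members, which are counted in them. In B6, 10 genes rose and 6 fell, 8.16% of the 196, against 5.43% of all genes. In BALB, 10 rose and 4 fell, 7.14%, against 5.53%. Their median differences were -0.02 in B6 and 0.01 in BALB, beside 0.01 and -0.01 over all genes. The list median furthest from 0 was -0.12, that of the basement membrane and network collagens in B6.

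**Figure D4:**
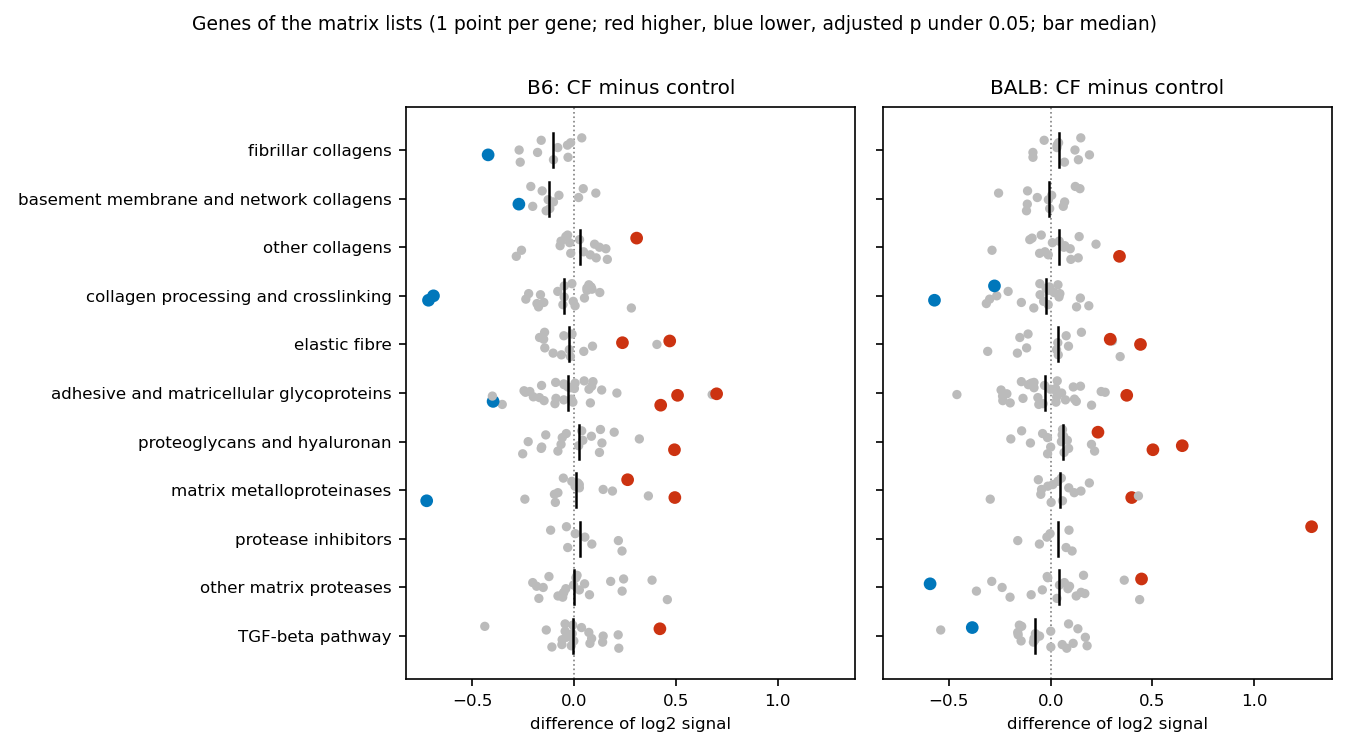
Difference of log2 signal, CF minus control, of each gene of the 11 matrix lists in B6 (left) and BALB (right), 1 point per gene, with red points higher and blue points lower at an adjusted p below 0.05 and a bar at each list's median. Most genes lie near 0 and coloured points fall on both sides, 10 red and 6 blue in B6 and 10 red and 4 blue in BALB.

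Of the 11 fibrillar collagens, 1 fell in B6 (Col3a1; 5 at an unadjusted p below 0.05, namely Col1a1, Col3a1, Col5a1, Col5a2 and Col24a1) and 0 passed in BALB by limma (0 at an unadjusted p below 0.05). Of 12 basement membrane and network collagens, Col4a4 fell in B6, by 0.27 (SE 0.07, adjusted p = 0.0354), and 0 passed in BALB (1 unadjusted). Of 17 other collagens, Col23a1 rose in B6, at 0.31 (adjusted p = 0.0298), and Col6a3 rose in BALB, at 0.34 (SE 0.09, adjusted p = 0.0253). Col6a3 read 8.81 to 9.14 in B6 controls and 8.39 to 8.92 in B6 CF lungs, but 8.30 to 8.87 in BALB controls and 8.61 to 9.01 in BALB CF lungs. Its strain difference, 0.62 (SE 0.13, adjusted p = 0.0102), held in all 23 fits without 1 array. That gene was also the one closest to the collagens in its variation within groups.

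Among 23 genes for collagen processing and cross-linking, 2 fell in B6 and 2 fell in BALB, and 0 rose. P4ha1, a subunit of the prolyl hydroxylase that stabilises the collagen helix, fell by 0.72 in B6 (SE 0.15, adjusted p = 0.00628) and by 0.57 in BALB (SE 0.14, adjusted p = 0.0201). Serpinh1, the collagen chaperone HSP47, fell by 0.69 in B6 (SE 0.15, adjusted p = 0.00769) and was at -0.27 in BALB (adjusted p = 0.323). The high values were those of male controls: P4ha1 read 8.87 to 9.26 in B6 control males, 7.78 to 7.85 in B6 CF males, 7.84 to 8.18 in B6 control females and 7.74 to 7.88 in B6 CF females.

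Serpinh1 read 10.28 to 10.64 in B6 control males, 9.25 to 9.33 in CF males, 9.40 to 9.56 in control females and 9.18 to 9.40 in CF females. Within B6 males the effects were -1.28 for P4ha1 (adjusted p = 0.00122) and -1.19 for Serpinh1 (0.00216), and within B6 females -0.15 and -0.19 (adjusted p = 0.913 and 0.858). The difference between the sexes did not pass for either gene (adjusted p = 0.0516 and 0.088). P3h2, a prolyl 3-hydroxylase, fell by 0.28 in BALB (adjusted p = 0.024). The B6 calls on P4ha1 and Serpinh1 held in all 23 fits that left out 1 array, and the BALB call on P4ha1 was lost without BALB male CF 1 (adjusted p = 0.0535) or BALB female control 1 (0.0562).

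Of 33 adhesive and matricellular glycoproteins, 3 rose and 1 fell in B6 and 1 rose in BALB. Tgfbi, a secreted adhesion protein named for its induction by TGF-beta, rose in both strains, by 0.51 in B6 (SE 0.08, adjusted p = 0.000483) and 0.37 in BALB (SE 0.07, adjusted p = 0.00387). It read 8.19 to 8.67 in B6 controls and 8.66 to 9.17 in B6 CF lungs, and 7.77 to 8.06 in BALB controls and 8.17 to 8.43 in BALB CF lungs. The BALB groups did not overlap, the B6 groups overlapped at their edge, and both calls held in all 23 fits without 1 array. With the muscle, squamous and gut scores as covariates the BALB value was 0.44 with an adjusted p of 0.197.

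Ccn2 (connective tissue growth factor) and Postn (periostin), both matricellular proteins linked to fibroblast activity, moved in opposite directions in B6. Ccn2 rose by 0.70 (SE 0.15, adjusted p = 0.0103), with controls at 9.51 to 10.44 and CF lungs at 10.16 to 10.71. Postn fell by 0.40 (SE 0.09, adjusted p = 0.00873), with controls at 9.98 to 10.33 and CF lungs at 9.54 to 9.95, without overlap. In BALB they were at -0.22 and 0.13 and did not pass (adjusted p = 0.487 and 0.457), and the strain differences were -0.92 for Ccn2 (adjusted p = 0.024) and 0.52 for Postn (adjusted p = 0.0202). Without B6 male CF 2 Ccn2 was lost in both comparisons (adjusted p = 0.0631 and 0.0638), and without B6 male CF 1 Postn was lost in both (0.0995 and 0.0793).

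Of 15 elastic fibre genes, Mfap4 (0.47) and Mfap2 (0.24) rose in B6, and Mfap5 (0.29) and Emilin2 (0.44) rose in BALB, with adjusted p of 0.0324, 0.0411, 0.0218 and 0.0465. Of 19 proteoglycan and hyaluronan genes, Fmod (fibromodulin, which binds collagen fibrils) rose in both strains, by 0.49 and 0.50 (adjusted p = 0.0362 and 0.0236). Aspn (asporin) rose in BALB by 0.65 (SE 0.15, adjusted p = 0.0129), with controls at 6.36 to 7.0 and CF lungs at 6.90 to 7.68, and was at 0.02 in B6 (adjusted p = 0.968). The strain difference on Aspn, 0.62, did not pass (adjusted p = 0.135). The hyaluronan receptor Cd44 rose by 0.23 in BALB (adjusted p = 0.033).

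Among 16 measured metalloproteinases, the neutrophil collagenase Mmp8 rose in both strains, by 0.50 in B6 and 0.40 in BALB (adjusted p = 0.0129 and 0.0328), and Mmp23 rose by 0.26 in B6 (0.0395). Mmp8 signal was low beside the median of all probe sets (4.59). Its means were 4.46 in B6 controls, 4.96 in B6 CF lungs, 3.98 in BALB controls and 4.38 in BALB CF lungs. The BALB call on Mmp8 was lost in 6 of the 23 fits without 1 array. Stromelysin 1 (Mmp3) fell by 0.72 in B6 (SE 0.13, adjusted p = 0.00284), with controls at 6.75 to 7.63 and CF lungs at 6.19 to 6.68, without overlap. The call held in all 23 fits without 1 array. It was at 0.06 in BALB (adjusted p = 0.878), and the strain difference was 0.78 (SE 0.18, adjusted p = 0.0259), lost without B6 male CF 1 (0.0849). Without that array the B6 difference in Mmp8 was 0.40 with an adjusted p of 0.124.

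Of 8 protease inhibitors 0 passed in B6 by limma (1 unadjusted), and in BALB Slpi, an inhibitor of neutrophil elastase secreted by epithelia, rose by 1.28 (SE 0.32, adjusted p = 0.0215). Slpi read 9.66 to 11.28 in the BALB CF females, which stood apart by muscle and squamous markers, 8.36 to 9.11 in BALB CF males and 8.06 to 8.39 in BALB controls. With those scores as covariates it was at 0.23 with an adjusted p of 0.827. The call was also lost without BALB female CF 3 (1.03, adjusted p = 0.058), BALB male CF 2 (0.0545), BALB male control 1 (0.0512) or BALB female control 1 (0.0501).

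Of 21 other matrix proteases 0 passed in B6 (5 unadjusted). In BALB cathepsin S (Ctss) rose by 0.45 (SE 0.09, adjusted p = 0.00428) and tissue plasminogen activator (Plat) fell by 0.59 (SE 0.13, adjusted p = 0.00927). Of 21 genes of TGF-beta signalling, the activin antagonist Fst rose by 0.42 in B6 (adjusted p = 0.0256) and the pseudoreceptor Bambi fell by 0.39 in BALB (0.0456).

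The calls on single matrix genes often rested on few arrays. Of the 16 genes that passed in B6, 5 passed in every fit that left out 1 array (Fn1, P4ha1, Serpinh1, Tgfbi and Mmp3), and of the 14 that passed in BALB, 4 did (Tgfbi, Aspn, Ctss and Plat). Of the 8 that passed in the strain difference of the CF effect, 1 did (Col6a3). Without B6 male CF 1, 10 of the 16 B6 calls and 6 of the 8 strain-difference calls were lost. Without B6 female CF 2, 8 of the 16 were lost, and without BALB male control 1, 9 of the 14 BALB calls. The BALB call on Bambi was lost in 17 of 23 fits and that on Emilin2 in 13, with adjusted p of up to 0.123 and 0.12. With the muscle, squamous and gut scores as covariates none of the 14 BALB calls passed. All 14 differences kept their sign, 5 were larger in size and 9 smaller, and the standard error was larger for 13. Slpi went from 1.28 to 0.23 and P4ha1 from -0.57 to -0.22, while Tgfbi was 0.44 beside 0.37 and Aspn 0.81 beside 0.65.

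Between the control strains 26 matrix genes were higher in BALB and 38 lower, 32.7% of the 196, beside 18.2% of all genes. Tnn (tenascin N) was 2.01 higher in BALB (SE 0.10, adjusted p = 1.67e-12), at 6.52 to 6.99 against 4.59 to 5.08 in B6. Mmp3 was 1.71 lower (SE 0.13, adjusted p = 1.46e-09), and the basement membrane chain Col4a6 was 1.58 lower (SE 0.09, adjusted p = 4.47e-11), at 4.27 to 4.67 against 5.84 to 6.27. Mfap5 was 0.95 lower and Mfap4 0.94 higher, and the metalloproteinase inhibitor Timp3 was 0.76 higher (adjusted p = 2.38e-09, 3.52e-06 and 4.82e-08). Probe sequences were not used here, and whether strain variants lie under these probes was not tested.

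Between female and male controls 3 matrix genes were higher in females and 5 lower, 4.08% of the 196, beside 3.42% of all genes. P4ha1 was 0.98 lower in females (SE 0.14, adjusted p = 0.000484), Serpinh1 0.64 lower (adjusted p = 0.0151), Plod1, a lysyl hydroxylase of collagen, 0.58 lower (adjusted p = 0.00566), Mmp3 0.50 lower (0.0379) and Mmp8 0.41 lower (0.042). Ccn3, Tgfb3 and Tgfb2 were higher in females by 0.36, 0.41 and 0.36 (adjusted p = 0.0205, 0.0341 and 0.043). Of these 8 calls, those on P4ha1 and Plod1 held in all 23 fits that left out 1 array. The other 6 calls, on Serpinh1, Mmp3, Mmp8, Ccn3, Tgfb3 and Tgfb2, were each lost in some of these fits. Without the arrays that stood apart, BALB female control 2 and BALB male control 3 were the only BALB controls left. That fit is too small to judge the calls.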

How the data were processed

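The deposited table held 45101 probe sets on 23 arrays, and 64 control probe sets were left out. The deposited values were read as log2 signals because of their range (1.79 to 13.82). For the steps by which the authors summarised and normalized these log2 values, and for the build, the method is not given in the sources used here. Columns carry the samples' own identifiers, and groups and replicate numbers came from the titles. Symbols came from the platform annotation: 34945 probe sets had 1 symbol, 932 several and 9160 none, and genes were named from the first kind only.

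Means of the 8 groups were fitted together with limma 3.58.1 (lmFit, eBayes; R 4.3.3; 15 residual degrees of freedom) in 12 comparisons, 5 of them main ones, with Benjamini-Hochberg adjustment within each. Data were simulated for 45037 probe sets, few of them changed, with independent normal noise whose spread was drawn from the fitted prior. For the CF effect in B6 the fit recovered 77% of log2 changes of 0.5 and 99% of changes of 1. It recovered 89% and 100% in BALB, and 45.5% and 97% for the strain difference. Of the calls in these comparisons, 5.21% to 7.78% were on unchanged probe sets. The simulation holds no tissue differences between arrays, so recovery in the real data may differ.

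The members, lists and tests were chosen with earlier results of these data known. The members were named always, and from each list up to 3 genes of lowest p that passed. Alternatives were quantile normalization, a filter on dim probe sets, the mean of a gene's probe sets, an intensity trend, only the groups compared, marker scores as covariates, the replicate number as a block and leaving out each array. Leaving out the arrays that stand apart and using each other probe set were added after seeing the data. Deviations of same-numbered arrays had mean correlations of 0.0271, -0.000305 and 0.028 for numbers 1 to 3, with single pairs from -0.185 to 0.347. These means pool both strains and sexes, so they cannot show whether the numbers pair samples within a strain. The titles do not state a pairing, and the numbers were not taken to pair samples.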

Additional observations from a re-analysis of the deposited data

Results flagged for a closer look

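On 2 of the 36 combinations of gene and group with 5 or 6 arrays, 1 array lay far from the others, by a gap over range above Dixon's 95% critical value. Chance gives such a gap in about 1 of 20 groups. Eln on B6 female control 1 (6.56) lay below the other 5 B6 controls by 0.745 of the group's range, and Mmp12 on B6 female CF 3 (5.50) lay above the other 4 B6 CF arrays by 0.908 of the group's range. The latter array also had the highest alveolar macrophage score (1.19) and monocyte and interstitial macrophage score (0.63).

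The CF effect differed between the strains, by the test of the difference itself, for 8 of the 196 measured matrix genes, 4.08%, beside 2.23% of all genes. BALB minus B6, the differences were 0.61 for Col3a1, 0.62 for Col6a3, 0.44 for Mfap5, 0.52 for Postn and 0.78 for Mmp3. They were -0.92 for Ccn2, 0.51 for Ccn4 and -0.52 for Has1. The calls on Ccn4 (adjusted p = 0.0407) and Has1 (adjusted p = 0.048) were lost in 13 and 18 of the 23 fits without 1 array.

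The CF effect in B6 differed between the sexes for 3 of the 196 matrix genes, named after their values were seen, which is 1.53% beside 2.05% of all genes. Female minus male, the difference was 0.94 for Plod1 (adjusted p = 0.0403), -2.67 for Ccn1 (0.018) and -1.09 for Tgfb2 (0.0104). Ccn1, a matricellular protein, read 7.04 to 7.34 in B6 control males and 9.03 to 9.39 in B6 CF males, but 8.21 to 9.25 in B6 control females and 7.86 to 8.46 in B6 CF females. B6 CF males had 2 arrays, and without either of them the Ccn1 difference did not pass (adjusted p = 0.0552 and 0.0614). The Plod1 call was lost in 10 of the 23 fits without 1 array (adjusted p of up to 0.108), and the Tgfb2 call in 0 of 23. The arrays behind the Plod1 losses were all B6 arrays other than female control 1 and male control 3, and BALB male CF 3.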

How the results depend on the processing

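Of the values of the 9 measured genes under the alternatives other than leaving out 1 array, 348 kept the direction and the call, 13 brought a difference past the threshold, 10 took it below, and 19 turned the sign of an uncalled difference. Of those without 1 array, 1013 kept both, 12 passed anew, 27 no longer passed and 29 turned the sign. The number of genes past the threshold (B6 2, BALB 0, strain difference 1, control strains 3, sexes 0) became 1 between sexes with the filter on dim probe sets, with only the groups compared and with marker scores as covariates. The gene gained was Lox (adjusted p = 0.0474, 0.0337 and 0.0411). With the mean of a gene's probe sets it was 0 in B6, where Col3a1 (-0.45, adjusted p = 0.0502) and Fn1 (0.37, 0.214) were lost, and 5 between control strains. With marker scores as covariates it was 1 in B6, 0 for the strain difference and 1 between control strains. Leaving out each array gave counts of 1 to 2 in B6, 3 to 4 between control strains, 0 to 2 for the strain difference and 0 to 1 in BALB and between sexes.

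Signs turned without a call as follows. With the mean of probe sets, Lox in BALB was 0.0016 and Tnc 0.015. With marker scores as covariates, Tnc in BALB was 0.22 and Mmp12 -0.071, Timp1 in the strain difference 0.29 and Tnc between sexes -0.021. Without the arrays that stood apart, Eln, Tnc and Mmp12 between sexes were 0.055, -0.091 and -0.032. On other probe sets, the BALB values were -0.013 for Col1a1, -0.039 for Col1a2, -0.13 for Fn1, 0.037 and 0.051 for Lox and 0.089 for Tnc. Also on other probe sets, Col1a2 was 0.062 in B6 and -0.10 in the strain difference, Lox -0.0080 between control strains and Tnc -0.017 between sexes. Leaving out each array turned Eln (-0.24 to 0.10) and Mmp12 (-0.024 to 0.30) in B6, and Col1a1 (-0.017 to 0.15), Lox (-0.22 to 0.073) and Tnc (-0.15 to 0.060) in BALB. It also turned Mmp12 in the strain difference (-0.15 to 0.17), Lox between control strains (-0.093 to 0.19), and Col1a1 (-0.10 to 0.069), Eln (-0.19 to 0.14) and Tnc (-0.076 to 0.14) between sexes. The causes were not tested.

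With the replicate number as a block, Col3a1 in B6 was -0.43 (adjusted p = 0.0339), Fn1 0.42 (0.0107) and the strain difference of Col3a1 0.62 (0.0387), and the block changed no call on the 9 genes. Over all probe sets, 2081 passed in B6 with the block and 2121 without it. With marker scores as covariates 1282 passed in B6, 38 in BALB (2217 without them), 117 for the strain difference (1142) and 1430 between control strains (7016). With the mean of probe sets, of 28285 tested, 1312 passed in BALB, 749 for the strain difference and 4626 between control strains. With only the groups compared, 1406 passed in BALB. Counts for the fit without the arrays that stood apart are not given, since BALB female control 2 and BALB male control 3 were its only BALB controls. Tnc, Mmp12 and Mmp8 were near or below the median signal, which limits what their values can show.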
